A study of Homo sapiens with 24 samples.

Results

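Messenger RNA was measured for 9 genes of the extracellular matrix and its anchorage to epithelial cells: the collagen chains COL1A1, COL4A1, COL5A1, COL7A1 and COL17A1, the laminin-332 chains LAMA3 and LAMB3, and the matrix glycoproteins FN1 (fibronectin) and TNC (tenascin C). They were listed by name with earlier results of these data known, under a rule that uses no measured value, and are 9 of the 60617 genes in the count table. All 9 were among the 15476 genes left by the filter on low counts, which formed the tested set. The samples were 24 libraries of the human cell line MDA686TU, established from a squamous carcinoma of the head and neck, in 4 groups of 6. The control was untreated. The EGCG group received epigallocatechin gallate, the main polyphenol of green tea, at 40 µM. The resveratrol group received resveratrol, a phytoalexin of grapes and berries, at 15 µM, and the combination group received the 2 together, unchanged in dose. Treatment lasted 24 h in every group. EGCG was dissolved in water and resveratrol in DMSO. Whether the control received DMSO is not given in the sources used here, so that effects of resveratrol and of its solvent cannot be told apart. The model is 1 cell line grown alone, without stroma, and nothing in the labels says whether the 6 replicates were separate cultures, so the p-values measure the spread between these libraries, which may be technical.

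The extracellular matrix gives tissues their mechanical frame and carries signals to cells through integrins and other receptors. Collagens are trimers of chains that are modified and folded in the endoplasmic reticulum, and the fibrillar types I and V form the fibers of the stroma, whereas type IV forms the sheet of the basement membrane. Squamous epithelium stands on that membrane through hemidesmosomes. There, laminin-332, a trimer to which LAMA3 and LAMB3 each contribute a chain, and the transmembrane collagen XVII link the keratin cytoskeleton to the membrane, and anchoring fibrils of collagen VII tie the membrane to the stroma. Fibronectin and tenascin C are secreted glycoproteins, low in resting epithelium and abundant in healing wounds and at the edge of many carcinomas.

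Library totals ranged from 7034872 to 11735574 counts. Of 10 markers of squamous epithelium, 10 were tested, with KRT5 at a mean of 1275 FPKM and KRT14 at 1654 FPKM in the control. Their summed normalized count was 162397 to 171547 in the control libraries and 155666 to 175101 in those of EGCG, against 135285 to 143218 in those of resveratrol and 134179 to 144574 in those of the combination. Fibroblasts, the usual source of type I collagen and fibronectin, were nearly absent by their markers. Of 8 fibroblast markers only COL1A2 passed the filter, THY1 was at 0 in all libraries, COL3A1 reached at most 1 count, and the summed list lay between 19.9 and 34.0 normalized counts in the control and between 27.7 and 40.3 with resveratrol. The mitochondrial share of counts was between 0.249 and 0.326% for replicates 1 to 3 and between 0.448 and 0.775% for replicates 4 to 6, in all groups, and values within each set are therefore given for the main results.

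The 250 bases before the transcription start are the stretches on which transcription factors that act close to a start would bind. They are printed for some of the genes only, chosen after the responses were seen. FN1, which fell more with resveratrol than COL17A1, has a window that is not printed. The sequences are from RefSeq on GRCh38.p14, 5′ to 3′ on the coding strand, and 8 of the 9 genes had a window, 11 windows in all. COL1A1 has no entry. Capitals mark 4 motifs searched on both strands, TGANTCA (the AP-1 site), GGGCGG (the GC box of Sp1), CCAAT (the CCAAT box) and TATAAA (the TATA box), and no matches overlapped. The COL5A1 stretch is chr9:134641553-134641802 (+), the COL17A1 stretch chr10:104085881-104086130 (-) and the TNC stretch, of 200 bases, chr9:115118208-115118407 (-). With resveratrol COL5A1 had the largest rise of the 9 genes, TNC the largest fall and COL17A1 the largest fall among the collagens:
COL5A1: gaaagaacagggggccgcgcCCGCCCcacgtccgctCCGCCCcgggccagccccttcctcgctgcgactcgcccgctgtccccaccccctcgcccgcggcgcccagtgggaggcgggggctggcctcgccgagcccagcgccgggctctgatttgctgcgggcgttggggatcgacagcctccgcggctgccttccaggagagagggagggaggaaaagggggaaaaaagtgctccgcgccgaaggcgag
COL17A1: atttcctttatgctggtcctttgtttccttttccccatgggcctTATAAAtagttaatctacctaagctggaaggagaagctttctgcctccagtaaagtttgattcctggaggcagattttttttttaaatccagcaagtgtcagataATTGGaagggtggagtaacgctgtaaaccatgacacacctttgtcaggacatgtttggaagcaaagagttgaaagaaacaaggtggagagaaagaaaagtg
TNC: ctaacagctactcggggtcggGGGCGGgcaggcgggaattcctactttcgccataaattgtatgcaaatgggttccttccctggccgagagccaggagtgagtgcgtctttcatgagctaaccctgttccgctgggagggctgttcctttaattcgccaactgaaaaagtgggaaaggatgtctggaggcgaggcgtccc

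The stretches of the laminin-332 chains are shown because LAMA3 and LAMB3 encode partners in one trimer and responded differently. The LAMA3 stretch is chr18:23872770-23873019 (+), which lies inside the gene before an internal start, the only LAMA3 window in the table, and the LAMB3 stretch chr1:209652426-209652675 (-). The 100 bases at chr13:110307158-110307257 (+) lie between COL4A1 and COL4A2, which are transcribed away from each other from starts 127 bases apart:
LAMA3: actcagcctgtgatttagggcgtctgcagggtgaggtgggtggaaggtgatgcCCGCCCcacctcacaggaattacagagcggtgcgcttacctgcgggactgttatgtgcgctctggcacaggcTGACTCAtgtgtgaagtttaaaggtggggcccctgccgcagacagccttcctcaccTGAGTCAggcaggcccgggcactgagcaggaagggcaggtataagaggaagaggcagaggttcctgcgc
LAMB3: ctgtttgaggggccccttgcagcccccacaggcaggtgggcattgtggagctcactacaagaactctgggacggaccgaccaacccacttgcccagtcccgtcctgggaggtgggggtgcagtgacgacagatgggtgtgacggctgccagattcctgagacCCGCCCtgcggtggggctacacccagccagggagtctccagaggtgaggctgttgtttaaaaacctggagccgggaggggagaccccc
COL4A1 and COL4A2: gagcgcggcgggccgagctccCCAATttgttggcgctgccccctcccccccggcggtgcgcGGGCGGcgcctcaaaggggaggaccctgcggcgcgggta

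Of the 3 LAMB3 windows the one printed lies before the gene's outermost start, and another, at chr1:209651325-209651624 (-) inside the gene, held 1 match to TGANTCA and 1 to CCAAT. The LAMA3 stretch held 2 matches to TGANTCA, a motif present in 6.57% of 35116 RefSeq windows of this length. The COL17A1 stretch held TATAAA, present in 10.7% of windows, and CCAAT, present in 32.0%, and no GGGCGG. Among windows not printed, that of COL7A1, which rose with the combination, held 1 match to TATAAA and 3 to GGGCGG. That of FN1 held 6 to GGGCGG and 1 to CCAAT. The other stretches printed each held GGGCGG, present in 42.6% of windows of 250 bases, 2 times in that of COL5A1. The stretch of TNC, of 200 bases, and that between COL4A1 and COL4A2, of 100 bases, are shorter than those windows. Base composition differed widely, from 40.4% GC in the COL17A1 stretch to 74.0% in that of COL5A1 and 78.0% between COL4A1 and COL4A2. A match describes the letters of the window only.

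Levels between genes were compared on the FPKM scale, which divides by a length for each gene. In GENCODE the exons of all transcripts together span 17216 bases for FN1, 14488 for LAMA3 and 4647 for LAMB3. The order of genes therefore also depends on the length used, and which transcripts these cells express was not tested. In the control, LAMB3 had the highest level of the 9 genes, 219 ± 5.93 FPKM (SD, n = 6), followed by COL17A1 at 142 ± 3.19, TNC at 52.1 ± 1.73 and LAMA3 at 35.0 ± 1.23. Of these, LAMB3, COL17A1 and LAMA3 are genes of epithelial anchorage, whereas TNC encodes a secreted glycoprotein, and COL7A1, of the anchoring fibrils, was lower. No neighbors in this order overlapped in their libraries. COL7A1 followed at 18.5 ± 4.34 FPKM, COL4A2 at 14.1 ± 0.774, COL1A1 at 13.8 ± 1.08, COL4A1 at 10.2 ± 0.407, COL5A1 at 9.03 ± 0.544 and FN1 at 8.58 ± 0.438. In this lower range the libraries of COL7A1 and COL4A2, COL4A2 and COL1A1, COL4A1 and COL5A1, and COL5A1 and FN1 overlapped, so that their order is not set beyond the spread. COL1A2, which encodes the other chain of the usual type I collagen trimer, was at 0.200 ± 0.063 FPKM, with 12.2 to 28.9 normalized counts per library.

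**Figure D1:**
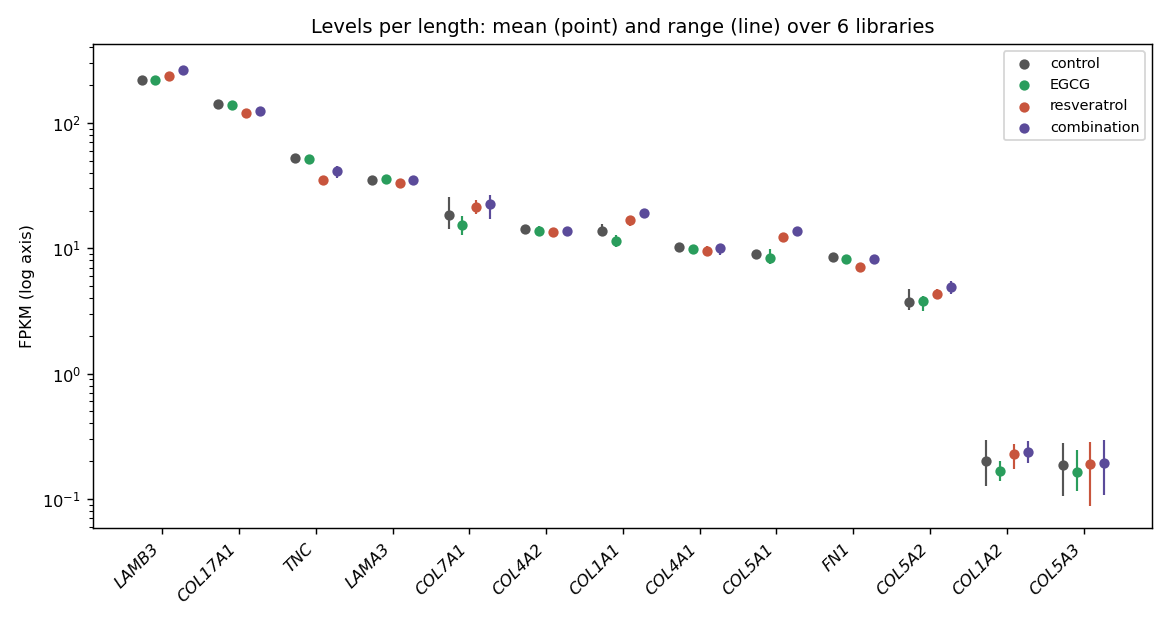
FPKM (log axis) of the 9 genes and of collagen chains that partner them, ordered by the control mean, with the mean (point) and the range (line) over 6 libraries in each group. LAMB3 and COL17A1 lie above 100 FPKM in every group, and COL1A2 and COL5A3 below 0.3 FPKM.

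EGCG alone changed 1 of the 9 genes. COL1A1 was downregulated, and the other 8 genes were not called. A gene was called differentially expressed (DEG) when its p in edgeR's quasi-likelihood test was under 0.05 and, after Benjamini-Hochberg adjustment over all tested genes, under 0.1, the limits of the study's methods. By this rule 1.76% of all tested genes were DEGs with EGCG, and 0.859% were lower. COL7A1, which was not called, had a log2 fold change of similar size to that of COL1A1, -0.28 (95% confidence interval -0.50 to -0.06, adjusted p = 0.300), whose libraries scattered widely. For COL17A1, LAMA3, LAMB3 and TNC the log2 difference from the control lay between -0.02 and 0.02.

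Resveratrol changed 8 of the 9 genes, and in both directions. COL5A1, COL1A1 and LAMB3 were upregulated, and TNC, FN1, COL17A1, COL4A1 and LAMA3 were downregulated. As 56.9% of all tested genes were DEGs in this comparison, 4466 higher (28.9%) and 4341 lower (28.0%), being called was common. The sizes ranged from a log2 fold change of -0.56 for TNC to 0.45 for COL5A1, and none reached 1.5-fold. The libraries of 5 of the 9 genes, COL5A1, LAMB3, COL17A1, FN1 and TNC, did not overlap between control and resveratrol, against 31.0% of all tested genes. When libraries were scaled by their totals alone, the median of all genes rose by 0.09 on the log2 scale, 6147 genes were called higher and 2857 lower, and of the 9 genes 4 were called higher and 3 lower.

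The combination changed 6 of the 9 genes against the control. COL5A1, COL1A1, COL7A1 and LAMB3 were upregulated, and TNC and COL17A1 were downregulated, beside 59.8% of all tested genes, 4633 higher and 4625 lower (29.9% in each direction). With library totals as the only scaling, 6041 genes were higher and 3311 lower, and 5 of the 9 genes were higher and 2 lower. FN1, COL4A1 and LAMA3, called with resveratrol alone, were not called with the combination. Of these, only FN1 was called when the combination was compared with resveratrol directly. The libraries of 5 of the 9 genes (COL1A1, COL5A1, LAMB3, COL17A1 and TNC) did not overlap with the control, against 31.9% of all tested genes. Against EGCG alone, the combination had 6 of the 9 genes called, the same 4 higher and the same 2 lower. Of all tested genes 57.8% were called there (28.7% higher and 29.1% lower). With library totals alone 7 of the 9 genes were higher and 2 lower, where 5737 of 15476 tested genes were higher and 3250 lower. Resveratrol against EGCG had 8 of the 9 genes called, 4 higher and 4 lower, where 55.0% were called (27.7% higher and 27.3% lower), and COL4A1 was the exception.

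What EGCG added to resveratrol is the comparison of the combination with resveratrol alone, which shares no library with that of EGCG against the control. All 9 log2 differences were above 0 (median 0.16, against -0.001 over all tested genes), and 5 of the 9 genes were called, all higher: COL1A1, COL5A1, LAMB3, FN1 and TNC. Of all tested genes 7.86% were DEGs in this comparison, and 4.01% of all tested genes were DEGs that were higher. The called differences lay between 0.16 and 0.23 on the log2 scale, so each was 1.12-fold to 1.17-fold. All 5 also had a positive difference in replicates 1 to 3 and in replicates 4 to 6 taken alone. FN1 and TNC rose against resveratrol, where resveratrol had lowered them, whereas COL1A1, COL5A1 and LAMB3 rose further above the control.

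**Figure D2:**
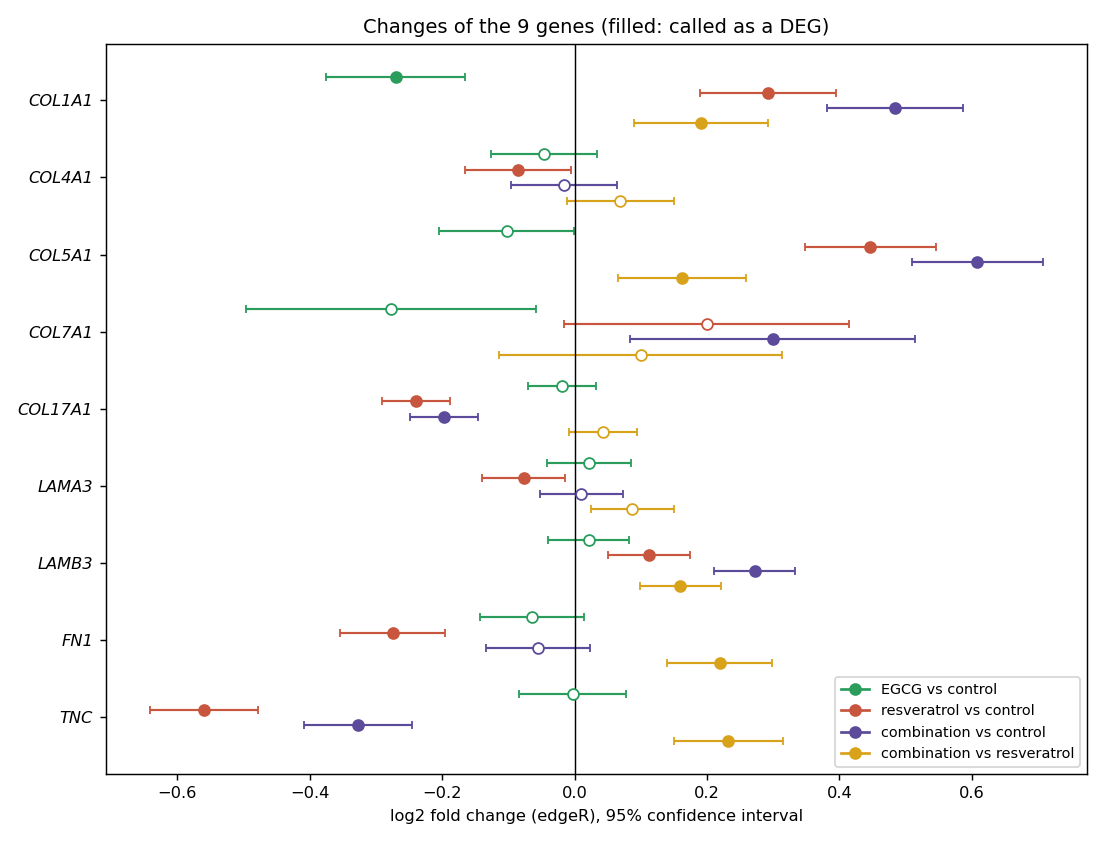
Log2 fold changes with 95% confidence intervals for the 9 genes in 4 comparisons (colors), with filled points for DEGs. The yellow points, the combination against resveratrol, lie to the right of 0 for all 9 genes, while the green points, EGCG against the control, are filled for COL1A1 alone.

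COL1A1 encodes the α1 chain of type I collagen, the main fiber of skin, bone and stroma (chr17:50184101-50201632, minus strand). Its normalized counts ran from 1083 to 1328 in the control (median 1155), from 875 to 1092 with EGCG (median 974), from 1283 to 1531 with resveratrol (median 1482) and from 1499 to 1718 with the combination (median 1692). The EGCG libraries overlapped with the control only at their upper end, the resveratrol libraries at their lower end, and every combination library lay above every control library. EGCG lowered COL1A1 (log2 fold change -0.27 ± 0.05 SE, adjusted p = 0.00215). Resveratrol raised it (0.29 ± 0.05, adjusted p = 7.96e-06) and the combination raised it more (0.48 ± 0.05 against the control and 0.19 ± 0.05 against resveratrol, adjusted p = 0.0169). The direction in each of these comparisons was the same in both sets of replicates, with -0.32 and -0.22 for EGCG and 0.16 and 0.43 for resveratrol (replicates 1 to 3 first). In replicates 4 to 6 alone the combination was 0.15 above resveratrol and was not called (adjusted p = 0.124).

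COL1A2, the α2 chain, is the partner of COL1A1 in the usual trimer of 2 α1 chains and 1 α2 chain. Beside the control range given above, it ranged over 13.5 to 19.4 normalized counts in EGCG, over 17.0 to 26.8 in resveratrol and over 19.0 to 28.1 in the combination, with overlap between each treated group and the control. It was not called against the control in any group. COL1A1 was at 13.8 and COL1A2 at 0.200 FPKM in the control, and at 19.3 and 0.237 FPKM with the combination. The 2 chains of this trimer were thus at very unequal mRNA levels in these cells.

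COL5A1 encodes the α1 chain of type V collagen, a minor fibrillar collagen that starts and limits the width of type I fibers (chr9:134641803-134844843, plus strand). It had 808 to 939 normalized counts in the control (median 895), 736 to 960.0 with EGCG (median 812), 1114 to 1302 with resveratrol (median 1210.4) and 1258 to 1430.0 with the combination (median 1352). All resveratrol and combination libraries lay above all control and EGCG libraries. The log2 fold change was 0.45 ± 0.05 with resveratrol (adjusted p = 1.07e-09) and 0.61 ± 0.05 with the combination (adjusted p = 3.95e-13), a 1.52-fold rise, the only one of the 9 genes past 1.5-fold against the control. The combination was 0.16 ± 0.05 above resveratrol (adjusted p = 0.0381). This call was lost without resveratrol replicate 2 (adjusted p = 0.103) or replicate 3 (0.106) and in replicates 4 to 6 alone (0.15, adjusted p = 0.232).

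The partners of COL5A1 were lower in level. COL5A2, the α2 chain, had 204 to 300.4 normalized counts in the control and 277 to 348 with the combination, with control replicate 1 the highest control library. It rose with resveratrol (0.21 ± 0.07, adjusted p = 0.0151) and with the combination (0.38 ± 0.07, adjusted p = 2.27e-05). COL5A3, the α3 chain, stayed between 5.16 and 17.3 normalized counts in all libraries, where the interval of its log2 difference from the control with the combination, -0.50 to 0.59, includes that of COL5A2. Type V trimers with 2 α1 chains and 1 α2 chain are the common form.

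COL4A1 encodes the α1 chain of type IV collagen, the network of every basement membrane (chr13:110148963-110307157, minus strand). It had 1221 to 1350.4 normalized counts in the control (median 1309), 1171 to 1322 with EGCG (median 1262), 1179 to 1330.2 with resveratrol (median 1205) and 1130.5 to 1347 with the combination (median 1319.9). The 4 groups overlapped throughout. Resveratrol lowered it slightly (log2 fold change -0.09 ± 0.04, adjusted p = 0.068), but this call was lost (adjusted p from 0.103 to 0.188) without any one of control replicates 1, 2, 5 and 6, EGCG replicates 1, 2, 4 and 6 and resveratrol replicates 1, 2, 3 and 5, and with library totals as the only scaling the value was 0.00. With the combination the difference was -0.02 (interval -0.10 to 0.06).

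COL4A2, which shares its promoter region with COL4A1 on the opposite strand, encodes the other chain of this trimer. It ranged over 2235 to 2532 normalized counts in the control, over 2182.4 to 2389.7 in resveratrol and over 2159.7 to 2388 in the combination. These ranges overlapped, and COL4A2 was not called in any comparison. Its log2 differences from the control were -0.05 in EGCG, -0.06 in resveratrol and -0.03 in the combination, and with library totals alone the last 2 were 0.03 and 0.06. Without control replicate 3 the difference with resveratrol was called (-0.08, adjusted p = 0.0793). The gene records of COL4A1 and COL4A2 overlap at their starts, and the strand setting of the counting is not given in the sources used here.

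COL7A1 encodes collagen VII, the anchoring fibril beneath squamous epithelium (chr3:48564073-48595329, minus strand). It had 1377 to 2462 normalized counts in the control (median 1587), 1226 to 1744 with EGCG (median 1435), 1825 to 2355 with resveratrol (median 1997) and 1662 to 2571 with the combination (median 2243). Control replicates 4 (2149) and 6 (2462) stood above the other control libraries, and the control SD was 23.5% of the mean, the widest of the 9 genes. The combination raised COL7A1 (0.30 ± 0.11, adjusted p = 0.0161), with 0.45 for replicates 1 to 3 and 0.18 for replicates 4 to 6 alone. With resveratrol alone the difference was 0.20 ± 0.11 (adjusted p = 0.114). It was called without control replicate 4 (0.26, adjusted p = 0.0482) or control replicate 6 (0.31, adjusted p = 0.0070), and also without EGCG replicate 1, 2, 4 or 6 or resveratrol replicate 2 (0.22 to 0.23, adjusted p from 0.0776 to 0.0854).

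COL17A1 encodes collagen XVII, the transmembrane collagen of hemidesmosomes (chr10:104031286-104085880, minus strand). It had 8336 to 8917 normalized counts in the control (median 8659), 8147 to 8914 with EGCG (median 8609), 7166 to 7532 with resveratrol (median 7278) and 7306 to 7749.7 with the combination (median 7546). All libraries with resveratrol, alone or in the combination, lay below all libraries without it. The spread was the smallest of the 9 genes, and a modest fall was therefore well resolved. The log2 fold change was -0.24 ± 0.03 with resveratrol (adjusted p = 4.52e-10) and -0.20 ± 0.03 with the combination (adjusted p = 2.66e-08), with -0.25 and -0.23 for resveratrol in the 2 sets of replicates. The combination did not differ from resveratrol beyond the spread (0.04, interval -0.01 to 0.09).

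**Figure D3:**
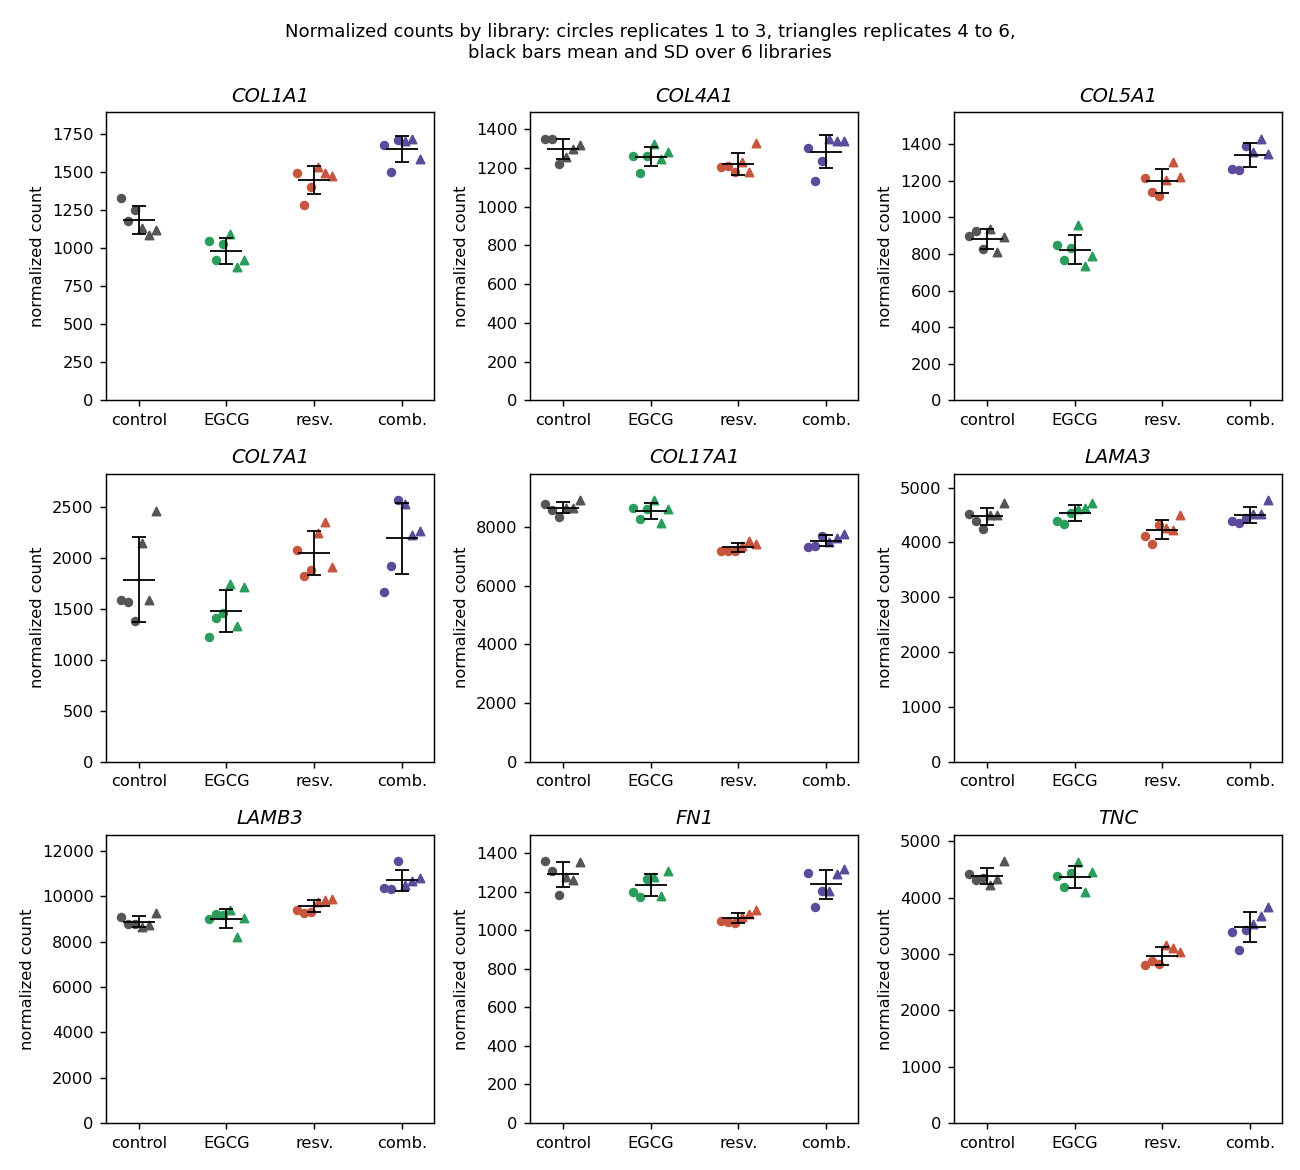
Normalized counts (vertical axes from 0) of the 9 genes in each library by group, with circles for replicates 1 to 3, triangles for replicates 4 to 6, and the mean and SD over 6 libraries in black. COL5A1 and COL17A1 separate the libraries with resveratrol from those without it, in opposite directions, and COL7A1 scatters most within the control.

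LAMB3 encodes the β3 chain of laminin-332, the adhesion ligand of basal keratinocytes (chr1:209614870-209652425, minus strand). It had 8631 to 9272 normalized counts in the control (median 8785), 8188 to 9380.2 with EGCG (median 9118), 9284 to 9860.0 with resveratrol (median 9574) and 10330.5 to 11545 with the combination (median 10601). The resveratrol libraries lay just above the control libraries, and the combination libraries lay above all others. The log2 fold change was 0.11 ± 0.03 with resveratrol (adjusted p = 0.00204), 0.27 ± 0.03 with the combination (adjusted p = 1.24e-09) and 0.16 ± 0.03 between combination and resveratrol (adjusted p = 0.000704). In replicates 1 to 3 alone resveratrol gave 0.08, not called (adjusted p = 0.120), and in replicates 4 to 6 alone the combination was 0.12 above resveratrol, not called (adjusted p = 0.134).

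LAMA3 encodes the α3 chain, which binds the integrins of the hemidesmosome (chr18:23689453-23956222, plus strand). It had 4237 to 4713 normalized counts in the control (median 4497), 4338 to 4728 with EGCG (median 4575), 3970.5 to 4499 with resveratrol (median 4248) and 4349 to 4774 with the combination (median 4486). The groups overlapped throughout. With resveratrol the log2 fold change was -0.08 ± 0.03 (adjusted p = 0.0368), but with library totals alone it was 0.01, and the call was lost (adjusted p from 0.0976, with an unadjusted p above 0.05, to 0.146) without any one of control replicates 5 and 6, EGCG replicates 1, 2, 4 and 6 and resveratrol replicate 2. The combination was 0.01 from the control (interval -0.05 to 0.07). It was 0.09 above resveratrol (adjusted p = 0.102), which was called without any one of 8 libraries, control replicates 3 and 6, EGCG replicates 2, 5 and 6, resveratrol replicate 6 and combination replicates 1 and 2 (0.09 to 0.10, adjusted p from 0.0525 to 0.0997).

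The ratio of 2 genes within a library does not depend on how libraries are scaled. The ratio of LAMB3 to LAMA3 normalized counts had a mean of 1.98 ± 0.0538 (SD, n = 6) in the control, 2.26 ± 0.0726 in resveratrol and 2.38 ± 0.113 in the combination, the last 2 without overlap with the control. The difference in the log2 ratio from the control was 0.19 with resveratrol and 0.26 with the combination (two-sided exact permutation test, 6 libraries against 6, p = 0.00216 for each, the smallest the test can give, adjusted p = 0.00433 over 4 tests). The combination was 0.07 above resveratrol (exact permutation, p = 0.0411, adjusted p = 0.0548). This difference passed the limits used for genes, but the adjusted p was above 0.05 and the libraries of these groups overlapped. With EGCG alone the ratio was not called (exact permutation, adjusted p = 0.965). With resveratrol the mRNAs of these chains of one trimer therefore changed unequally. The ratio was chosen after the values of the chains had been seen.

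FN1 encodes fibronectin, a ligand of several integrins and a scaffold for collagen fibers (chr2:215360440-215436073, minus strand). It had 1180.5 to 1357 normalized counts in the control (median 1292), 1174 to 1308 with EGCG (median 1232), 1037 to 1103 with resveratrol (median 1057) and 1121 to 1315 with the combination (median 1248). Every resveratrol library lay below every other library, and the other 3 groups overlapped. FN1 fell with resveratrol (log2 fold change -0.27 ± 0.04, adjusted p = 2.55e-07) and was 0.22 ± 0.04 higher with the combination than with resveratrol (adjusted p = 0.000349). The combination was -0.06 from the control (interval -0.13 to 0.02, adjusted p = 0.228). That difference was 0.03 with library totals alone and was called without control replicate 3 (-0.08, adjusted p = 0.0743).

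TNC encodes tenascin C, a hexameric glycoprotein that modulates adhesion to fibronectin (chr9:115019575-115118207, minus strand). It had 4215 to 4643 normalized counts in the control (median 4339), 4102 to 4635 with EGCG (median 4408), 2804 to 3156 with resveratrol (median 2955) and 3060.3 to 3837 with the combination (median 3474). All libraries with resveratrol lay below all libraries without it, and the combination overlapped with resveratrol only at its lowest library. The log2 fold change was -0.56 ± 0.04 with resveratrol (adjusted p = 3.12e-14), the largest of the 9 genes in that comparison, and -0.33 ± 0.04 with the combination (adjusted p = 1.05e-08). The combination was 0.23 ± 0.04 above resveratrol (adjusted p = 0.000228), with 0.22 for replicates 1 to 3 and 0.25 for replicates 4 to 6 alone. With EGCG alone the difference was -0.003 (interval -0.08 to 0.08), and its sign turned with library totals alone (0.003).

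The interaction asked whether the combination differed from the sum of the single agents, as the log2 fold change of the combination minus those of EGCG and of resveratrol alone. For all 9 genes it was above 0 (median 0.24, against -0.005 over all tested genes), and 3 of the 9 genes were called, COL1A1, FN1 and TNC, where 0.265% of all tested genes, 41 of 15476, were called and 0.207% were called above 0. For COL1A1 the single agents summed to 0.02 and the combination gave 0.48, an interaction of 0.46 ± 0.07 (adjusted p = 0.000787). For FN1 they summed to -0.34 and the combination gave -0.06, an interaction of 0.28 ± 0.06 (adjusted p = 0.00958). For TNC they summed to -0.56 and the combination gave -0.33, an interaction of 0.24 ± 0.06 (adjusted p = 0.0756). Since the interaction holds the same libraries as the other comparisons, it is not separate evidence from them.

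The interaction of TNC was near the threshold. It was lost, at adjusted p from 0.102 to 0.180, without any one of 12 libraries, control replicates 1, 2, 3 and 6, EGCG replicates 2 and 5, resveratrol replicates 1, 2 and 3 and combination replicates 4, 5 and 6. COL5A1, with 0.26 ± 0.07 (adjusted p = 0.134), was not called, but was without control replicate 5 (0.29, adjusted p = 0.0781), EGCG replicate 4 (0.31, adjusted p = 0.0217) or resveratrol replicate 5 (0.29, adjusted p = 0.0888), and by DESeq2's Wald test (adjusted p = 0.0501). The COL1A1 interaction came to 0.55 for replicates 1 to 3 and to 0.38 for replicates 4 to 6 alone, that of FN1 0.28 and 0.29, and that of TNC 0.22 and 0.25. The sign was thus the same in both sets for all 3 genes. In replicates 1 to 3 alone, FN1 (adjusted p = 0.487) and TNC (0.436) were not called.

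**Figure D4:**
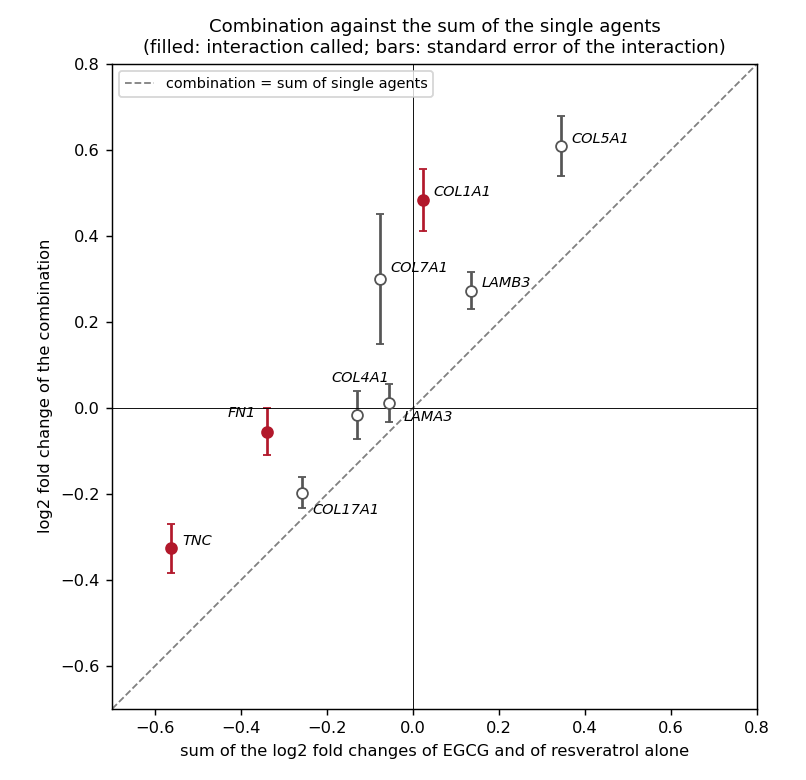
Log2 fold change of the combination (vertical axis) against the sum of those of EGCG and resveratrol alone (horizontal axis) for the 9 genes, with the standard error of the interaction as bars and filled points where the interaction was called. All 9 points lie above the dashed line of equality, COL1A1 farthest from it.

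Other collagen chains followed both directions. Of 39 listed chains 15 were tested, and with the combination 5 rose and 3 fell against the control (median log2 fold change 0.05, against -0.002 over all tested genes). With resveratrol 5 rose and 4 fell (5 and 2 with library totals alone). Neither EGCG against the control nor the combination against resveratrol gave a call in this list by edgeR or DESeq2, with 1 and 2 chains at an unadjusted p under 0.05, and 1 chain was called in the latter comparison without control replicate 1 or combination replicate 2. COL4A5, a chain of specialized basement membranes, rose from 567 ± 38.9 to 776 ± 34.9 normalized counts (SD, n = 6) with the combination (0.46 ± 0.05). COL18A1, the core of a basement membrane proteoglycan, rose by 0.18 ± 0.05. COL12A1, which decorates collagen fibers, fell from 2521 ± 134 to 1847 ± 149 (-0.45 ± 0.05), and COL27A1, a fibrillar collagen of cartilage, by 0.36 ± 0.07 on the log2 scale.

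Of 9 other laminin chains 7 were tested. With the combination 5 rose and 1 fell (5 and 0 with library totals alone), the latter being LAMA5 (-0.16 ± 0.07), named after its values were seen, and with resveratrol 3 rose and 0 fell. LAMB2, the β2 chain of laminins of vessels, kidney and synapse, rose from 330.4 ± 30.1 to 638 ± 43.4 normalized counts with resveratrol and to 656 ± 57.0 with the combination, a log2 fold change of 0.95 ± 0.06 and 1.00 ± 0.06, without overlap with the control. LAMA1 rose by 0.43 ± 0.09 and LAMB1 by 0.35 ± 0.05 with the combination. With EGCG alone 0 of these chains were called by edgeR or DESeq2, 1 had an unadjusted p under 0.05, and 1 was called without EGCG replicate 2.

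Of 47 other glycoproteins of the matrix and basement membrane 27 were tested. With the combination 15 rose and 7 fell (17 and 4 with library totals alone), and with resveratrol 12 rose and 7 fell (16 and 5). MATN2, an adaptor of matrix filaments, rose from 48.0 ± 7.41 to 149.6 ± 15.6 normalized counts with the combination (1.63 ± 0.10), FREM2, a basement membrane protein of skin, by 1.48 ± 0.12, and FBN1, the main protein of microfibrils, by 1.04 ± 0.10. THBS1 (thrombospondin 1) fell from 23981 ± 1157 to 14352 ± 750.4 (-0.74 ± 0.03). TGFBI, a collagen-binding adhesion protein induced by TGF-β, had 15622 ± 520.1 normalized counts in the control, 12208 ± 304 in EGCG, 9890.0 ± 185 in resveratrol and 8726 ± 186 in the combination, each lower than the last without overlap. It was the only gene of this list called with EGCG alone (-0.35 ± 0.02, adjusted p = 2.81e-13) and in the interaction (0.17 ± 0.03, adjusted p = 0.00958). EGCG beside resveratrol thus lowered TGFBI further (-0.18 ± 0.02, adjusted p = 1.97e-06), while the 5 of the 9 genes called in that comparison were higher.

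Of 33 genes for modifying, folding, processing and crosslinking collagen 26 were tested. With the combination 13 rose and 7 fell against the control (15 and 3 with library totals alone), with resveratrol 9 rose and 6 fell, and 7 were higher and 0 lower with the combination than with resveratrol. MIA2, which helps to export collagen from the endoplasmic reticulum, rose by 0.74 ± 0.05, and the crosslinking enzymes LOXL2 and LOX rose by 0.74 ± 0.09 and 0.56 ± 0.09. SERPINH1, the collagen chaperone HSP47, fell from 5155 ± 187 to 4014 ± 74.6 normalized counts (-0.36 ± 0.03), and P3H3, a prolyl hydroxylase, by 0.63 ± 0.13 on the log2 scale. EGCG alone raised 3 genes of this list, the prolyl 4-hydroxylase subunits P4HA1 (from 703 ± 28.5 to 931 ± 41.5 normalized counts, 0.41 ± 0.03, adjusted p = 1.29e-10) and P4HA2 (0.18 ± 0.05, adjusted p = 0.0612) and LOXL2 (0.45 ± 0.09, adjusted p = 0.00477). Of 15476 tested genes 140 were called higher with EGCG. The P4HA2 call was lost, at adjusted p from 0.116 to 0.184, without any one of control replicates 4 and 6 and EGCG replicates 1, 2 and 3. These enzymes rose with EGCG while COL1A1 fell. COLGALT1, which adds galactose to collagen, fell by 0.08 ± 0.03 with the combination, a value of 0.000 with library totals alone.

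Of 22 hemidesmosome partners and matrix receptors 19 were tested. With the combination 10 rose and 6 fell (12 and 4 with library totals alone), with resveratrol 9 rose and 7 fell, and 6 were higher and 0 lower with the combination than with resveratrol. Components of the hemidesmosome went both ways. DST (dystonin), named after its values were seen, rose by 0.23 ± 0.04 with the combination, whereas ITGA6 and PLEC fell, as COL17A1 did. ITGA6, the α6 chain of the laminin-332 receptor, went from 14060.1 ± 391 to 11059 ± 888 normalized counts with the combination (-0.34 ± 0.04), and PLEC (plectin), the link to keratin, from 23099 ± 2903 to 17874 ± 1902 (-0.37 ± 0.08). The receptor chains ITGAV and ITGB6, which form a receptor of fibronectin and tenascin C, rose by 0.58 ± 0.04 and 0.54 ± 0.05, and the collagen receptor chain ITGA1, at 26.9 ± 4.08 normalized counts in the control, by 0.68 ± 0.15. SDC1 (syndecan 1) fell by 0.25 ± 0.03. ITGA5, the α chain of the main fibronectin receptor, was the 1 gene of this list called with EGCG alone (0.18 ± 0.05, adjusted p = 0.0279). That call was lost without EGCG replicate 1 (adjusted p = 0.102).

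All 14 genes of TGF-β signalling, a pathway that induces collagens and fibronectin in many cells, were tested. With the combination 6 rose and 4 fell (6 and 1 with library totals alone), with resveratrol 5 rose and 4 fell (7 and 3), and with EGCG alone 0 were called by edgeR or DESeq2 and 4 had an unadjusted p under 0.05. TGFB1, the ligand, rose by 0.18 ± 0.05 with the combination, and SKI, a repressor of the pathway, by 0.24 ± 0.06. SMAD3, a transducer, fell by 0.14 ± 0.04, and was -0.06 and not called with library totals alone (adjusted p = 0.218). The counts with the combination in these lists read against the 59.8% of all tested genes called, 29.9% in each direction. Those with resveratrol read against 28.9% higher and 28.0% lower, and those with EGCG against 1.76% called. Those in the interaction read against 0.265% called. Those between the combination and resveratrol read against 7.86% called and 4.01% higher. With library totals alone, 6041 of 15476 tested genes were higher and 3311 lower with the combination, and 6147 and 2857 with resveratrol.

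**Figure D5:**
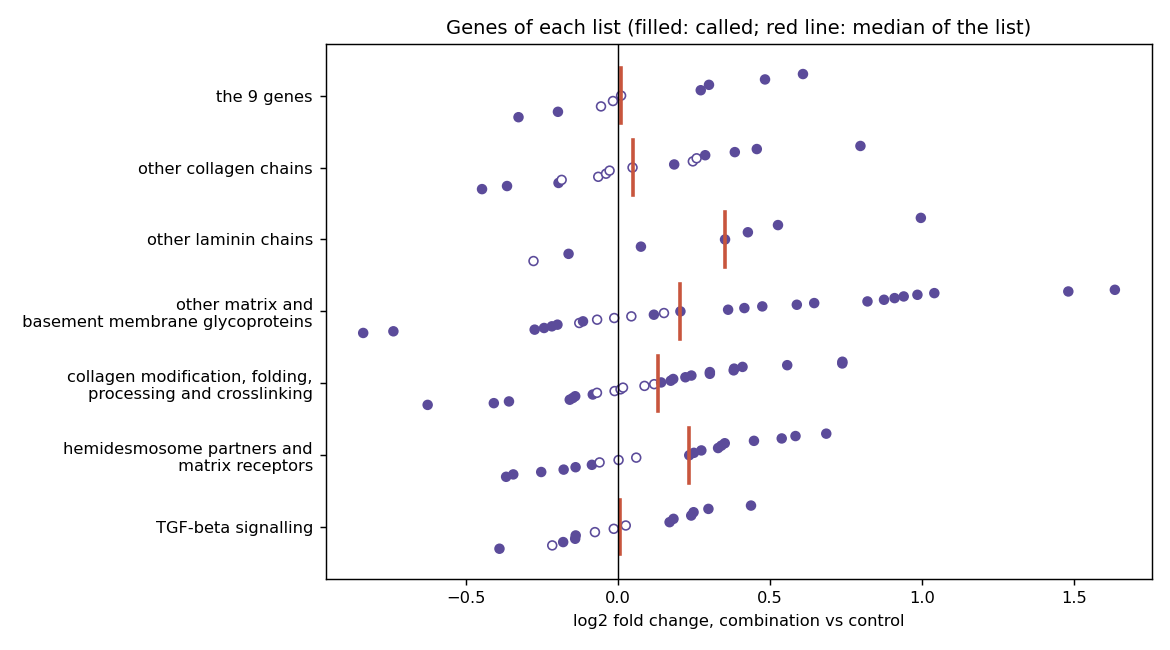
Log2 fold changes of the tested genes of each list for the combination against the control (horizontal axis), with filled points for DEGs and a red line at the median of the list. The 9 genes have a median of 0.01, and each list holds DEGs on both sides of 0.

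The genes whose pattern over the 24 libraries was most like each of the 9 were found by Pearson's r of log2 CPM. These values describe libraries that share 4 treatments and carry no p. COL1A1 was most like COL5A1 (r = 0.946), followed by DNAJB2 (0.935) and the ferritin pseudogene FTH1P20 (0.918). COL5A1 itself was more like other genes than like COL1A1, with the highest values for KRT80 (0.966), PIEZO1 (0.965) and DHCR7 (0.963). COL17A1 and TNC were both most like PTBP1 (0.985 and 0.970), and TNC was also like ETS1 (0.960) and COL17A1 (0.956). Among the genes most like LAMB3 were LONP1 (0.944) and DDR1 (0.933), a collagen receptor.

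For the remaining genes the nearest patterns were weaker. COL7A1 was most like NEAT1 (0.910), a nuclear long noncoding RNA, PABPC1L (0.906) and TAF1C (0.890). FN1 was most like SDK1 (0.856), HAS3 (0.843), a hyaluronan synthase, and TAF4B (0.821). Among the genes most like LAMA3 were MYH9 (0.795) and EGFR (0.789), and COL4A1 was most like PTGFRN (0.821), CNOT1 (0.774) and ATP2A2 (0.756).

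The summed squamous markers were lower in both groups with resveratrol, as given above, but the list did not move as one. With resveratrol 2 of the 10 were higher and 5 lower, and with the combination 3 were higher and 4 lower, with a median log2 fold change of 0.01. The 4 lower ones with the combination were the keratins KRT5, KRT14, KRT6A and KRT17 (from -0.37 to -0.34), whose counts make up most of the sum, and CDH1 (0.43), DSG3 (0.44) and TP63 (0.09) were higher. The part of these markers in the results of the 9 genes was not tested. In bulk RNA of a culture, fewer cells expressing a gene and less RNA per cell cannot be told apart, which holds for every fall and rise given here.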

How the data were processed

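Total RNA of 24 samples, 6 per group, was sequenced by the authors from stranded mRNA libraries (TruSeq, paired reads), trimmed with Trimmomatic 0.36, aligned to GRCh38 with HISAT2 2.0.4 and sorted with SAMtools 1.3.1, per the submitters' notes and the study's methods. The counting program, annotation release and strand setting are not given in the sources used here. Raw counts, whole numbers of reads per gene in each library, were deposited by the authors. Their normalized counts, also deposited as a signal per gene, equal the raw values over 1 factor for each library, as was checked. For each gene, the FPKM values deposited by the authors were checked to be these divided by 1 factor, the same in all libraries. That this factor is the gene's length was not checked, and FPKM served only for levels between genes.

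edgeR 4.0.16 (R 4.3.3) was used on the raw counts of the 24 libraries together (filterByExpr, TMM, quasi-likelihood test), with group as the only term, and p-values were adjusted over 15476 genes. A DEG had an adjusted p under 0.1 and p under 0.05. SE is the fitted log2 fold change's standard error. The 9 genes, the gene lists and the rule for naming genes were chosen with earlier results of these data known. Named were the 9 genes, their chain partners, per list up to 3 highest and 3 lowest DEGs of the combination whose libraries did not overlap with the control, list genes called with EGCG or in the interaction, and the 3 genes most like each of the 9 (log2 CPM, prior count 2). Some genes that this rule or the lists hold are not reported here. Positions are those of GENCODE on GRCh38. edgeR and DESeq2 1.42.0 were tested on simulated data. The alternatives were DESeq2's size factors or Wald test, library size alone, filters of at least 1 count in all or 10 counts in every library, other thresholds including 1.5-fold, only the groups compared, a replicate block, replicates 1 to 3 and 4 to 6 apart or as a term, and each library left out. At these depths counting error is small for the 9 genes and is part of the SD over 6 libraries.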

Additional observations from a re-analysis of the deposited data

Results flagged for a closer look

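Of 36 groups of 6 libraries checked over the 9 genes, 2 held a library whose gap to its nearest neighbor, as a share of the group's range, passed the limit of Dixon's test at 95% confidence, and chance alone flags about 1 in 20 groups. COL4A1 in resveratrol replicate 6 had 1330.2 normalized counts, above the other 5 resveratrol libraries at 1179 to 1228. LAMB3 in EGCG replicate 5 had 8188 normalized counts, below the other 5 EGCG libraries at 8979 to 9380.2.

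The interaction, which compares the effect of EGCG with and without resveratrol, was called for 3 of the 9 genes and for TGFBI. Of all tested genes 0.265% were called. COL1A1 had an interaction of 0.46, with a log2 change by EGCG of -0.27 without resveratrol and 0.19 beside it. FN1 had 0.28, with -0.06 and 0.22. TNC had 0.24, with -0.003 and 0.23. TGFBI had 0.17, with -0.35 and -0.18, so that EGCG lowered it in both settings but less beside resveratrol.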

How the results depend on the processing

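Leaving out each of the 24 libraries in turn, the number of the 9 genes called was 1 to 1 for EGCG against the control, 6 to 9 for resveratrol, 6 to 7 for the combination, 4 to 6 for the combination against resveratrol, 6 to 6 for the combination against EGCG, 8 to 8 for resveratrol against EGCG and 2 to 4 for the interaction. With a 1.5-fold limit the counts in this order were 0, 0, 1, 0, 2, 0 and 0. Without p adjustment, 3 genes were called with EGCG and 7 in the interaction. With every gene of at least 1 count tested, 2 were called with EGCG and 5 in the interaction. In replicates 4 to 6 alone, 2 were called with EGCG and 2 for the combination against resveratrol, and in replicates 1 to 3 alone 1 in the interaction. The cause of these changes was not tested, apart from fewer libraries in the last ones. Same-numbered libraries deviated together only weakly, with r of -0.01 to 0.13 over 36 pairs and over 0.1 in 2. Of the 36 pairs, 15 were best with their own number. Their median r was 0.049, against 0.028 for other numbers of the same set and -0.041 between sets. What same-numbered libraries share is not given in the labels. With the replicate number as a block 2 genes were called with EGCG, COL7A1 beside COL1A1. Of all tested genes 370 were then called with EGCG, against 273 without the block.

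Directions turned only for small values, but some of these had been called. Called against the control were COL4A1 (-0.09) and LAMA3 (-0.08) with resveratrol and COLGALT1 (-0.08) with the combination. With library size alone the log2 values became 0.00245 (COL4A1), 0.0109 (LAMA3) and 0.0254 (COL4A2) for resveratrol against the control, 0.0664 (COL4A1), 0.0272 (FN1), 0.0553 (COL4A2), and 0.000234 (COLGALT1) for the combination against the control, 0.00334 (TNC) for EGCG, 0.0414 (COL4A1) for resveratrol against EGCG and 0.0650 (LAMA3) for the combination against EGCG. With at least 10 counts in every library, COL4A1 was 0.00967 (combination against control) and LAMA3 0.0159 (combination against EGCG), and with only the groups compared COL4A1 was 0.00364 (combination against control). In replicates 4 to 6 alone, COL4A1 was 0.0551 and COL4A2 0.0062 with the combination and LAMB3 -0.0043 with EGCG. In replicates 1 to 3 alone, the combination against EGCG gave -0.0102 for COL4A1 and -0.0073 for FN1, and the log2 ratio of LAMB3 to LAMA3 with EGCG was 0.0275. With each library left out in turn, values that changed sign ranged from -0.0348 to 0.0174 (COL4A1) and from -0.00646 to 0.0294 (LAMA3) for the combination against the control, from -0.0284 to 0.0209 (LAMA3) and -0.00846 to 0.0465 (FN1) for the combination against EGCG, and from -0.0202 to 0.0160 (TNC) and -0.0224 to 0.0311 (ratio of LAMB3 to LAMA3) for EGCG against the control. Of 810 values under settings that leave out no single library, 716 kept their direction and their side of the threshold, as did 1442 of 1512 with 1 library left out. At under 30 normalized counts, COL1A2 and COL5A3 are limited by depth.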
